A study of Homo sapiens with 6 samples.

Results

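To describe the genes of oxidative phosphorylation in HK-2 cells labelled as ANXA2 knockdown, the nuclear-encoded subunits of the respiratory chain were compared with the cells labelled control, complex by complex. The members were the protein-coding genes whose symbols begin with NDUFA, NDUFB, NDUFC, NDUFS, NDUFV, UQCR, COX4, COX5, COX6, COX7, COX8 or ATP5, together with SDHA, SDHB, SDHC, SDHD and CYC1, and without the NDUFAF assembly factors. This gave 89 of the 26899 genes listed in the count table, of which 83 passed the filter on low counts that left 15299 genes to test. By function, 38 of the 89 belonged to complex I, 4 to complex II, 10 to complex III, 17 to complex IV and 20 to complex V, with NDUFA4 and NDUFA4L2 counted in complex IV. A choice by symbol also took in a few genes that are not classical subunits, such as the coupling factor ATP5S, the complex I assembly protein ATP5SL and the readthrough gene ATP5J2-PTCD1.

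HK-2 is an established human cell line derived from kidney proximal tubule and transformed with HPV-16. There were 3 libraries labelled control, called wild type in their titles and shCtrl in their descriptions, and 3 labelled shANXA2. All were of cells grown in serum-containing medium and transfected by lipofection with plasmids, and polyadenylated RNA was sequenced in directional libraries. No source used here gives the hairpin sequence, the time after transfection, or whether the control carried a hairpin.

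The respiratory chain carries electrons from NADH and succinate to oxygen and uses the released energy to move protons across the inner mitochondrial membrane. Complexes I and II feed electrons in, complexes III and IV pass them on through cytochrome c to oxygen, and complex V, the ATP synthase, lets the protons return and makes ATP. A few core subunits of complexes I, III, IV and V are encoded in mitochondrial DNA, whereas every subunit of complex II and most subunits of the others are nuclear genes whose products are imported. The proximal tubule is among the tissues richest in mitochondria, because reabsorption of solutes consumes ATP.

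ANXA2, which encodes the membrane-binding protein annexin A2, checks the labels. It had 40453, 47742 and 52187 reads in the libraries labelled control and 52479, 51549 and 43849 in those labelled knockdown. Scaled for depth this was 1598 ± 119 against 1539 ± 21.3 CPM (reads scaled for library depth), a log2 difference of -0.05 (SE 0.075) with an adjusted p of 0.848 in edgeR. The targeted transcript therefore did not differ beyond the spread between libraries, and the groups are named below by their labels only. Depth ran from 24231267 to 34561675 counted reads, and the members took between 1.00% and 1.13% of them. Of 12 proximal tubule markers 11 were listed and 5 passed the filter, with sums of 679 to 866 CPM in the libraries labelled control and 671 to 1021 CPM in those labelled knockdown. Among them LRP2, CUBN, AQP1, ANPEP and HNF4A were near 0, whereas PAX8, GGT1 and the epithelial keratin KRT8 were abundant. Sums of leukocyte markers stayed at or below 6.27 CPM, those of endothelial markers at or below 0.394 CPM and those of fibroblast markers at or below 11.2 CPM.

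Many promoters of these genes hold short motifs of factors that are known to drive them, and 4 stretches with such motifs are shown. RefSeq promoters (GRCh38.p14, from 250 bases before to 50 after the annotated start) were matched for 67 of the 89 members. The letters searched on both strands were GCGCATGC (reverse GCATGCGC) for nuclear respiratory factor 1, NRF1, CCGGAAG (reverse CTTCCGG) for GABP, also called nuclear respiratory factor 2, and AAGATGGCG (reverse CGCCATCTT) for YY1. No match of one motif overlapped a match of another. The stretches were chosen from members with an unadjusted p under 0.05 in edgeR (below) and an NRF1 or GABP match before the start. Other members described below also hold such matches and are not shown, among them SDHB, SDHD, NDUFS1, UQCRQ and ATP5H. Because the choice used the comparison itself, the stretches do not bear on whether motif and difference go together. The stretches lie on the plus strand at chr19:1383809-1383866 for NDUFS7, chr3:120596152-120596211 for NDUFB4, chr12:120437870-120438112 for COX6A1 and chr11:63974577-63974619 for COX8A. Capitals mark an NRF1 match in NDUFS7 and NDUFB4 (in NDUFB4 a match on each strand, sharing bases), 2 matches to NRF1 and then 1 to GABP in COX6A1, and a GABP match in COX8A.
NDUFS7: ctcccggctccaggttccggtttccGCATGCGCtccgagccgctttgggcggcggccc
NDUFB4: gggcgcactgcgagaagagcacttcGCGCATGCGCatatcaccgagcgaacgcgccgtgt
COX6A1: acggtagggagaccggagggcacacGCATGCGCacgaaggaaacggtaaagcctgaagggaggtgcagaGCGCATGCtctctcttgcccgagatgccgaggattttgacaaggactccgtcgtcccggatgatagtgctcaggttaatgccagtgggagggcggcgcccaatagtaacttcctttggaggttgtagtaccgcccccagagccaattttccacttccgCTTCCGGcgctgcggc
COX8A: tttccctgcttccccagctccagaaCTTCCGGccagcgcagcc

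The NRF1 letters occurred in 13 of the 67 promoters (19.4%), against 3.05% of all 35116 RefSeq promoters of the same length. The GABP letters occurred in 19 (28.4%) against 10.3%, and the YY1 letters in 8 (11.9%) against 1.75%. No difference between members with and without a match was tested. The median log2 difference was 0.12 over the 13 tested members with the NRF1 letters and 0.11 over the 52 without, 0.14 over 19 and 0.10 over 46 for GABP, and 0.17 over 8 and 0.11 over 57 for YY1. A match is a run of letters and not a measured binding site.

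To rank the genes by abundance, the deposited FPKM values were used, which are scaled for transcript length. The median member stood at 59.8 FPKM, whereas the median of all tested genes was 3.78 FPKM. Complex IV had the highest median level, at 103 FPKM, followed by complex V at 72.7, complex III at 68.8, complex II at 44.2 and complex I at 38.9 FPKM. The leading members were ATP5B, the catalytic beta subunit of the ATP synthase, at 614 FPKM, and COX6A1, a small subunit of cytochrome c oxidase, at 522 FPKM. NDUFS5 (365 FPKM) led complex I, UQCRH, the hinge protein (302 FPKM), led complex III, and SDHB, the iron-sulphur subunit (114 FPKM), led complex II. The lowest tested members were UQCRHL, a copy of UQCRH, at 0.245 FPKM and NDUFA4L2 at 0.452 FPKM.

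**Figure D1:**
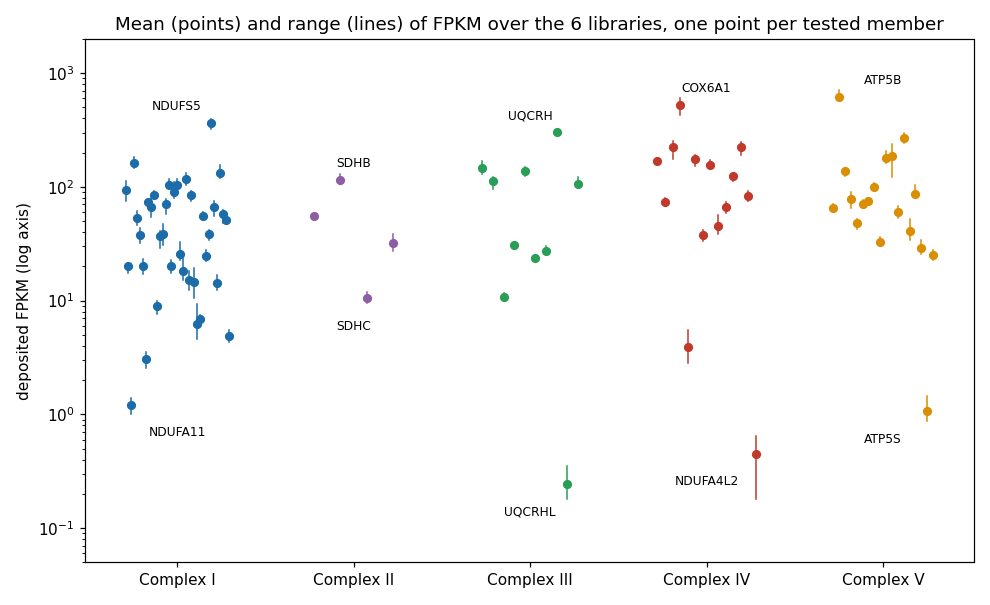
Deposited FPKM of each tested member on a log axis, by complex (points, mean over the 6 libraries, and lines, range over them). Complex IV has the highest median (103 FPKM) and complex I the lowest (38.9 FPKM), and single members run from 0.245 to 614 FPKM.

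Several subunits exist as tissue-specific pairs, and in each pair measured here the form of most tissues was the more abundant one. COX4I1 stood at 169 FPKM, whereas its lung- and hypoxia-associated counterpart COX4I2 had 1 read over all 6 libraries. COX6A1 was at 522 FPKM and its heart and muscle form COX6A2 at 3.95 FPKM. COX6B1 was at 174 FPKM, and the testis form COX6B2 had 24 reads in all. COX8A was at 225 FPKM, and COX8C, another testis form, had 1 read. NDUFA4 was at 82.8 FPKM and its hypoxia-induced paralogue NDUFA4L2 at 0.452 FPKM. COX7A2 was at 155 FPKM and COX7B at 66.2 FPKM, and their counterparts COX7A1 and COX7B2 were not analysed here. The low forms COX4I2, COX6B2 and COX8C did not pass the filter, nor did the copies ATP5L2 (11 reads) and ATP5EP2 (5 reads) or a second identifier of NDUFA7 (1 read). Paralogues such as UQCRH and UQCRHL are near-identical, so reads may have been split between them.

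The members were then compared between the groups with edgeR, all differences being log2 values of knockdown over control. None of the 83 passed an adjusted p of 0.05, the lowest adjusted p being 0.599, and 0% of all 15299 tested genes did. DESeq2 also called 0 of the 83 members, although it called 32 genes over the whole table. The point estimates of the members leaned upwards nevertheless. They lay above 0 for 68 of 83 members (81.9%), against 49% of all tested genes, with a median of 0.11 (7.74% higher) against -0.0065 for all tested genes. At an unadjusted p under 0.05 there were 10 members with higher and 1 with lower values (12.05% and 1.205%), against 3.86% and 4.32% of all tested genes. The 3 values of each group did not overlap for 18 members higher in knockdown (21.7%) and 1 lower (1.205%), against 7.94% and 7.7% of all tested genes. Members share libraries, and many share a short length, so these counts describe the list and do not test it.

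**Figure D2:**
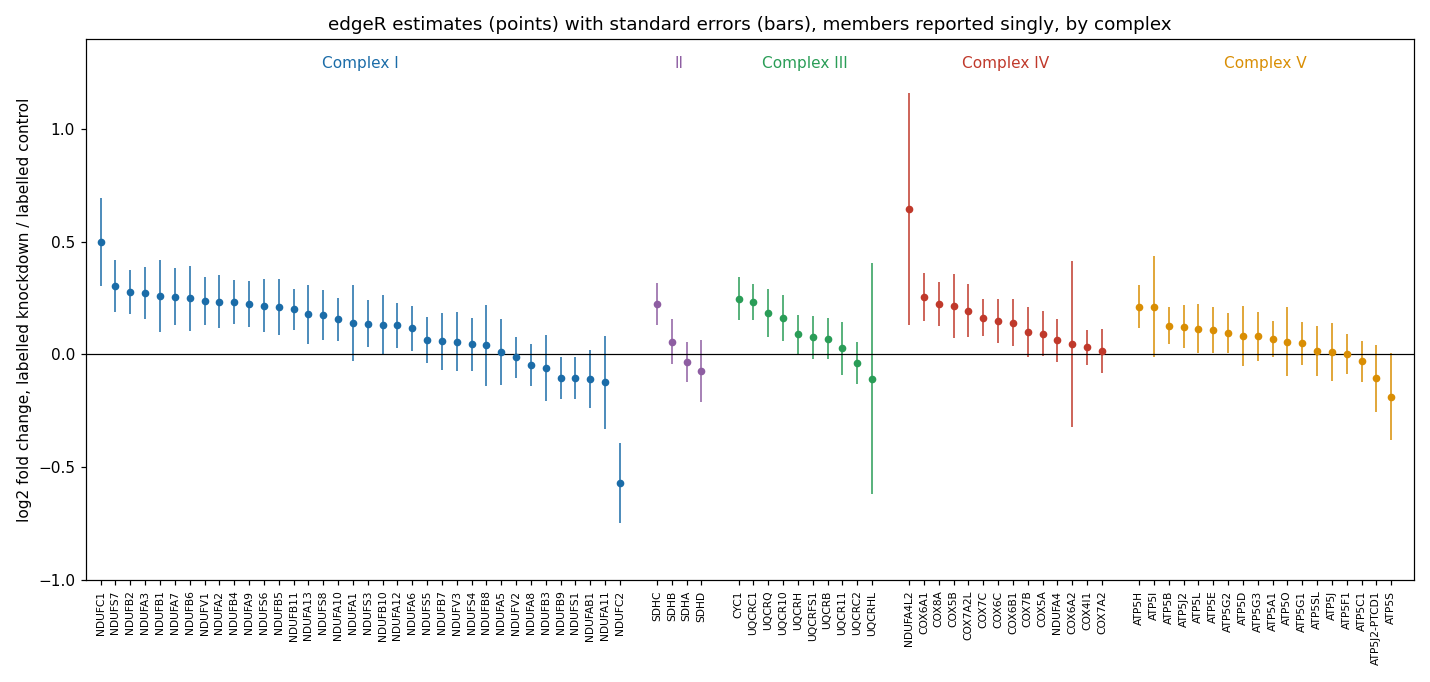
Estimated log2 difference (libraries labelled knockdown over control) of the tested members reported singly, by complex, with bars of 1 standard error from edgeR. Most estimates lie above 0 (68 over all 83 tested members), NDUFC2 is lowest at -0.57 and NDUFA4L2 highest at 0.65, and no member passes an adjusted p of 0.05.

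Complex I, the NADH dehydrogenase, had the largest number of members. Of its 37 tested genes 29 (78.4%) had estimates above 0, against 49% of all tested genes, with a median of 0.14. At an unadjusted p under 0.05, 5 were higher (13.5%) and 1 lower (2.70%), against 3.86% and 4.32% of all tested genes. Without overlap of the groups 10 were higher (27.0%) and 1 lower (2.70%), against 7.94% and 7.7% of all tested genes. NDUFB2, an accessory subunit of the membrane arm (chromosome 7, 140690777 to 140722790, plus strand), measured 62.2, 58.1 and 63.9 CPM in the libraries labelled control and 78.2, 69.7 and 75.2 CPM in those labelled knockdown. Every knockdown value was above every control value, and the difference was 0.28 (SE 0.0979, adjusted p 0.599). NDUFS7, a core subunit that carries the last iron-sulphur cluster before ubiquinone (chromosome 19, 1383527 to 1395589, plus strand), measured 46.0, 42.5 and 44.9 CPM against 58.1, 47.6 and 58.8 CPM. The groups did not overlap, knockdown replicate 2 being close to the control values, and the difference was 0.30 (SE 0.115, adjusted p 0.605). NDUFB4, an accessory subunit (chromosome 3, 120596328 to 120602507, plus strand), measured 178, 156 and 157 CPM against 205, 179 and 193 CPM. Here control replicate 1 and knockdown replicate 2 nearly met, and the difference was 0.23 (SE 0.0979, adjusted p 0.605). NDUFA3, a small membrane subunit, measured 33.2, 29.8 and 28.5 CPM against 39.3, 36.4 and 34.7 CPM without overlap, a difference of 0.27 (SE 0.114, adjusted p 0.605).

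NDUFC2 differed in direction from these. This membrane arm subunit (chromosome 11, 78068297 to 78079862, minus strand) measured 26.3, 18.0 and 18.9 CPM in the libraries labelled control and 13.2, 13.1 and 16.2 CPM in those labelled knockdown. All knockdown values were below all control values, with control replicate 1 well above the others, and the difference was -0.57 (SE 0.179, adjusted p 0.599), or -0.38 without that library. Its partner by name, NDUFC1 (chromosome 4, 139266880 to 139302551, minus strand), measured 21.1, 15.8 and 17.8 CPM against 29.6, 18.6 and 29.1 CPM. Its groups overlapped through knockdown replicate 2, and the difference was 0.50 (SE 0.196, adjusted p 0.605). The annotated exons of NDUFC2 share 428 bases with the readthrough gene NDUFC2-KCTD14, which was not analysed here. Those of NDUFC1 share 584 bases with NAA15 on the opposite strand, so both counts are uncertain. Opposite-strand genes also overlap other members, such as NDUFB2 (1239 bases, BRAF) and NDUFS7 (2693 bases, ENSG00000248015). BRAF held 1233 reads against 12547 for NDUFB2, and ENSG00000248015 held 207 against 9167 for NDUFS7.

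The other core subunits of complex I gave a mixed picture. NDUFV1, which holds the flavin that accepts electrons from NADH, was 90.6 ± 10.4 CPM against 107 ± 2.38 CPM (SD over 3 libraries in each group). The groups did not overlap, with a difference of 0.24 and an adjusted p of 0.61. NDUFS8 had a difference of 0.18 and NDUFS3 of 0.14. NDUFV2 was -0.01 (95% interval -0.22 to 0.19), and NDUFS1, the largest subunit, was -0.10 (-0.31 to 0.10). Further members higher without overlap were NDUFA9, NDUFB11, NDUFA2 and NDUFA10, with differences of 0.22, 0.20, 0.23 and 0.16. NDUFS5, the most abundant member of complex I, was 207 ± 20 against 217 ± 13.9 CPM, a difference of 0.06 (-0.17 to 0.29).

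Complex II, the succinate dehydrogenase, is shared with the citric acid cycle. SDHC, which helps anchor the complex in the membrane (chromosome 1, 161314381 to 161363206, plus strand), measured 139, 135 and 145 CPM in the libraries labelled control and 149, 169 and 171 CPM in those labelled knockdown. The groups did not overlap and differed by 0.22 (SE 0.0942, adjusted p 0.605). The other anchor, SDHD, measured 83.9, 79.1 and 78.5 CPM against 69.7, 66.3 and 93.9 CPM, and its knockdown values lay on both sides of the control values (-0.07, 95% interval -0.38 to 0.24). The flavoprotein SDHA measured 149, 144 and 137 CPM against 140.2, 145 and 134 CPM (-0.03, -0.23 to 0.17). SDHB measured 135, 138 and 136 CPM against 139, 129 and 158 CPM (0.06, -0.17 to 0.28). Over the 4 genes 2 estimates were above 0 (50%, against 49% of all tested genes). Their median was 0.011 and ranged from -0.014 to 0.07 with a library left out. Without knockdown replicate 2, 3 of the 4 were above 0. Without knockdown replicate 3 it was 1 of the 4, and also 1 after the trend with gene length was removed.

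Complex III, the cytochrome bc1 complex, had 8 of 10 estimates above 0 (80%, against 49% of all tested genes) and a median of 0.08. UQCRC1, a core protein of the complex (chromosome 3, 48599002 to 48610976, minus strand), measured 267, 260.2 and 274 CPM in the libraries labelled control and 320.5, 316 and 306 CPM in those labelled knockdown. The groups stood well apart, with a difference of 0.23 (SE 0.0789, adjusted p 0.599). CYC1, the heme-bearing cytochrome c1, measured 186, 166 and 177 CPM against 214, 192 and 222 CPM, again without overlap, with a difference of 0.25 (SE 0.095, adjusted p 0.605). The second core protein, UQCRC2, showed nothing of the kind, with 68.5 ± 3.86 against 66.6 ± 0.684 CPM and a difference of -0.04 (95% interval -0.25 to 0.17). The Rieske iron-sulphur protein UQCRFS1 had a difference of 0.08, the small subunit UQCRQ of 0.18 and UQCRH of 0.09. UQCRHL, at 0.587 ± 0.183 against 0.545 ± 0.188 CPM, had an interval of -1.26 to 1.05.

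Complex IV, cytochrome c oxidase, had estimates above 0 for all 14 tested members (against 49% of all tested genes), with a median of 0.15. This count was 13 with scaling by library size alone, 10 after the trend with gene length was removed and 12 after the trend with GC content was removed. COX6A1 (chromosome 12, 120438090 to 120440737, plus strand) measured 305, 257 and 304 CPM in the libraries labelled control and 360.5, 306 and 367 CPM in those labelled knockdown. Its lowest knockdown value nearly touched the highest control value, and the difference was 0.25 (SE 0.107, adjusted p 0.605). COX8A, another small subunit (chromosome 11, 63974620 to 63976543, plus strand), measured 116, 102 and 117 CPM against 132, 125 and 134 CPM without overlap, with a difference of 0.22 (SE 0.0963, adjusted p 0.608). COX7C, at 227 ± 11.2 against 254 ± 2.3 CPM, and COX6C, at 88.7 ± 5.65 against 98.4 ± 5.54 CPM, were also higher without overlap, by 0.16 and 0.15.

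COX4I1 and COX7A2 had estimates close to 0. COX4I1, the largest nuclear subunit of the complex, was 314 ± 11.1 against 321 ± 2.57 CPM, a difference of 0.03 (95% interval -0.15 to 0.21), and COX7A2 was 175 ± 17.5 against 177 ± 2.56 CPM, a difference of 0.02 (-0.20 to 0.24). For COX7A2 the estimate turned to -0.0066 with scaling by library size alone. COX6B1 had a difference of 0.14, COX7B of 0.10 and NDUFA4 of 0.06. NDUFA4L2 held the highest estimate of the list, 0.65, on 0.246, 0.673 and 0.546 CPM against 0.908, 0.757 and 0.658 CPM. Its 120 reads left a 95% interval of -0.51 to 1.80, and the groups overlapped.

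Complex V, the ATP synthase, had 15 of 18 estimates above 0 (83.3%, against 49% of all tested genes). Its median was 0.07 (0.03 to 0.13 with a library left out). At an unadjusted p under 0.05 it had 0 members, whereas 3.86% of all tested genes were higher and 4.32% lower. The number above 0 was 12 with scaling by library size alone and 9 after the length trend was removed. ATP5B (chromosome 12, 56638175 to 56645984, minus strand) measured 1137, 1123 and 1171 CPM in the libraries labelled control and 1213, 1156 and 1376 CPM in those labelled knockdown. Knockdown replicate 2 lay inside the control range, and the difference was 0.13 (SE 0.0821, adjusted p 0.684), or 0.05 without knockdown replicate 3. ATP5H, the d subunit of the peripheral stalk, measured 111, 105 and 113 CPM against 126, 119 and 136 CPM (0.21, adjusted p 0.608). It was the only member of the complex whose groups did not overlap (5.56%), against 7.94% of all tested genes higher without overlap. The catalytic alpha subunit ATP5A1 had a difference of 0.07, the rotor shaft ATP5C1 of -0.03 and the stalk subunit ATP5F1 of 0.00. The genes ATP5G1, ATP5G2 and ATP5G3 encode the same mature ring subunit, and their differences were 0.05, 0.09 and 0.08. ATP5J2 was 0.12, and ATP5S, the lowest estimate of the complex, was -0.19 (95% interval -0.62 to 0.25).

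**Figure D3:**
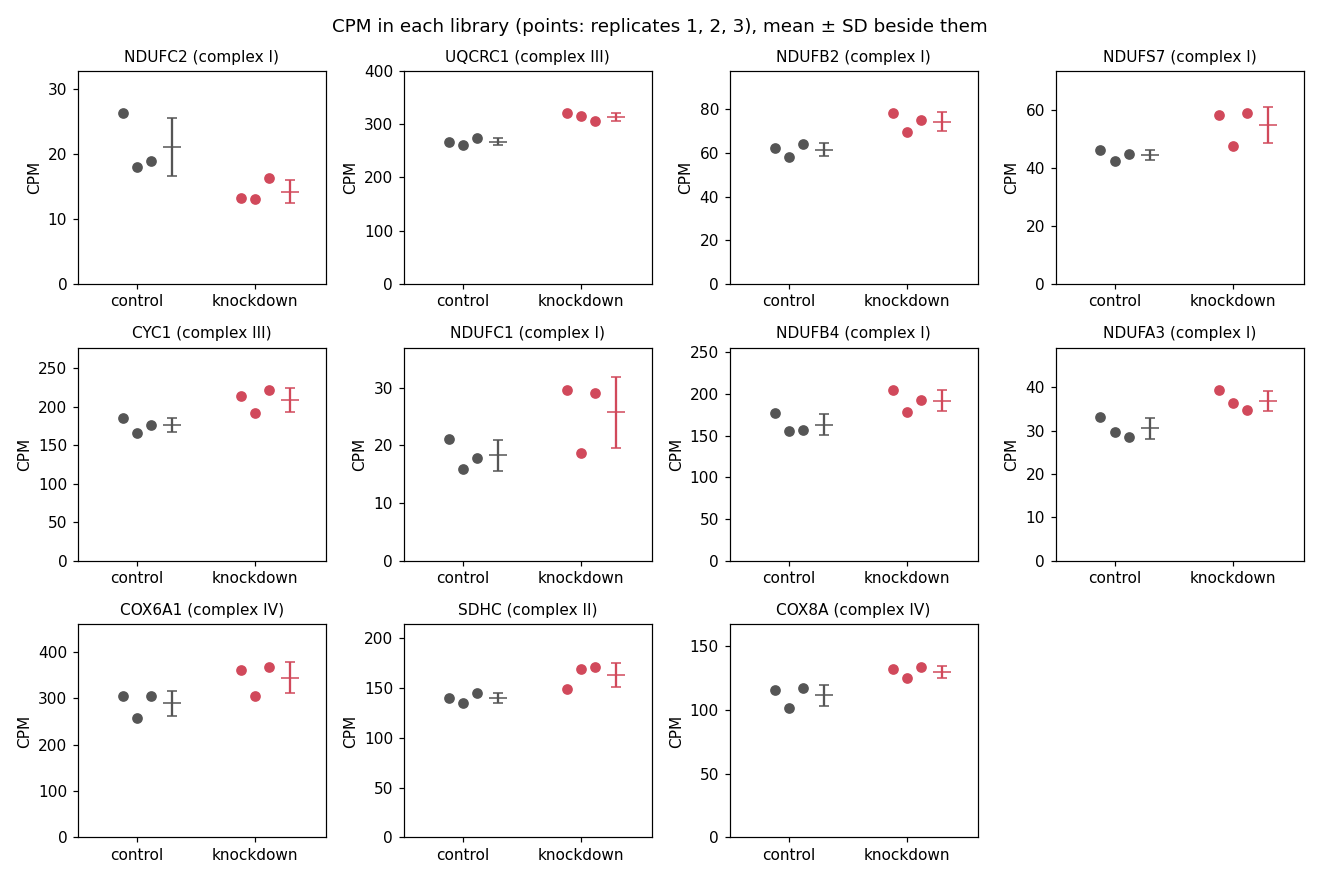
CPM in each of the 6 libraries of the 11 members with an unadjusted p under 0.05 in edgeR, one panel a gene, with each group's mean and SD over 3 libraries. The knockdown values of NDUFC2 lie below all control values, those of NDUFC1 overlap the control values, and those of the other 9 lie above them.

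The counts of some members depend on how reads of overlapping genes were assigned. On the same strand, the readthrough gene over NDUFA11 (ENSG00000267740) held 17426 reads and NDUFA11 itself 995. The like gene over NDUFB8 held 21037 reads against 2951, the one over ATP5O 25569 against 5230, the one over UQCR11 9537 against 4079 and the one over NDUFA9 15422 against 14988. For these 5 members more reads were therefore listed under the other identifier, whose log2 differences were 0.04, 0.13, 0.17, 0.08 and 0.19. ATP5J2 (33912 reads) and ATP5J2-PTCD1 (19775 reads) are both members and share 166 exonic bases. The low levels of NDUFA11, at 1.22 FPKM, and NDUFB8, at 15.2 FPKM, are uncertain for this reason.

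The lean of the members was next followed library by library, as the median over the 83 members of the log2 deviation from each gene's mean. It was 0.012, -0.12 and -0.07 in the libraries labelled control and 0.086, 0.0033 and 0.055 in those labelled knockdown. Control replicate 1 lay above knockdown replicate 2, so the groups overlapped. Summed over the members, the libraries labelled control held 10768, 9842 and 10126 CPM and those labelled knockdown 11219.6, 10682 and 11342 CPM, which overlapped in the same way. The sum over complex III was 1231 ± 27.2 against 1364 ± 35.2 CPM, that over complex I 2753 ± 153 against 2997 ± 77.7 CPM and that over complex IV 2138 ± 122 against 2350 ± 77.6 CPM. Complex II was at 499.9 ± 6.89 against 522 ± 31.3 CPM and complex V at 3622 ± 166 against 3849 ± 199 CPM. Only the sums of complex III did not overlap between the groups. For complex IV, control replicate 1 (2270 CPM) lay above knockdown replicate 2 (2263 CPM). A change in the mix of cells and a change in RNA per cell cannot be told apart in bulk RNA. Without control replicate 1 the median over the members was 0.18. Of the 83 members 19 then had an unadjusted p under 0.05, against 12.4% of all tested genes. Without control replicates 2 or 3 or knockdown replicate 1 that number was 3, 3 and 2. The shares of all tested genes were then 4.71%, 8.87% and 3.21%. Without knockdown replicate 2, 11 members were higher and 1 lower at that p, against 5.89% of all tested genes in either direction. Without knockdown replicate 3, 6 were higher and 2 lower, against 8.23%.

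**Figure D4:**
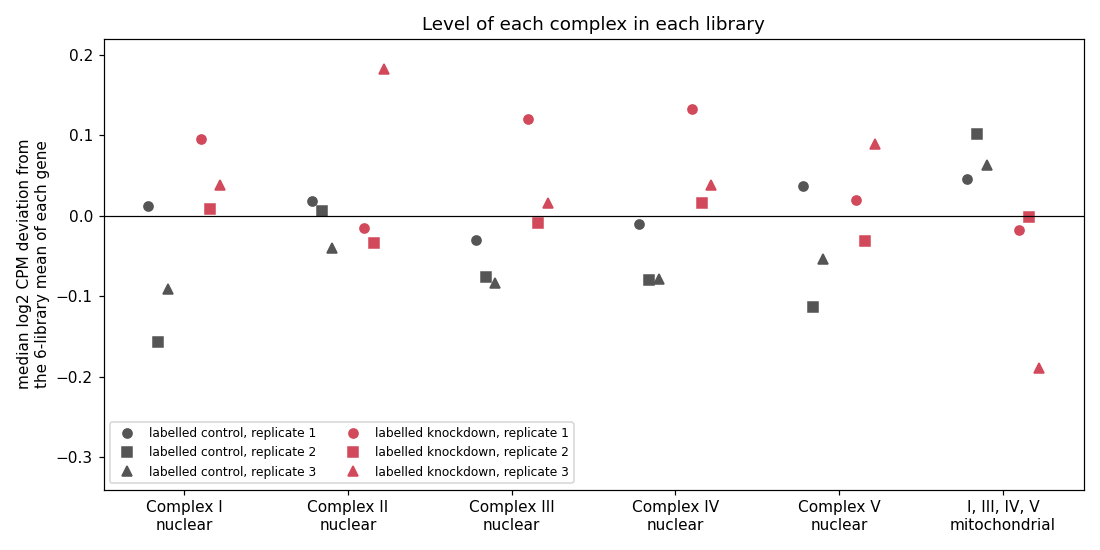
Median log2 deviation from each gene's mean over 6 libraries, for the tested members of each complex and for the 13 mitochondrially encoded subunits, one point a library. By these medians the groups do not overlap in complexes III and IV, and they overlap in complexes I, II and V. For the mitochondrially encoded subunits every library labelled knockdown lies below every library labelled control.

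Gene length and base composition moved with the comparison across the whole table, but unevenly between libraries. Length here is the transcript length implied by the ratio of reads to FPKM, not the genomic span. GC content is the mean over a gene's GENCODE transcripts. All tested genes were split into 5 bins of equal size by length, and the 15122 with a GC value again by GC content. The median log2 difference went from 0.07 in the bin of the shortest genes to -0.10 in that of the longest. By GC content it went from -0.15 in the lowest bin to 0.12 in the highest. Single libraries differed in their medians of log2 deviation from each gene's mean. From lowest to highest GC bin these ran from 0.25 to -0.17 in control replicate 2 and 0.06 to -0.02 in control replicate 3. Control replicate 1 rose from -0.06 to 0.03. Knockdown replicates 1, 2 and 3 rose from -0.09, -0.05 and -0.05 to 0.10, 0.05 and 0.07. From shortest to longest bin the widest runs were -0.07 to 0.14 in control replicate 2 and 0.09 to -0.11 in knockdown replicate 3. The members are short, with a median length of 0.484 times that of the tested genes and 45 of 83 in the shortest bin, while their median GC content was 48.9% against 49.7%. Within the shortest bin the members had a median of 0.14 and the other genes 0.07. In the next bin, with 20 members, the medians were 0.04 and 0.04, and the 5, 6 and 7 members of the remaining bins had medians of 0.19, 0.09 and 0.07 against -0.0021, -0.05 and -0.10 for the other genes. With the length trend taken out in the model, 51 of 83 members were above 0, and their median was 0.05 against -0.02 for all tested genes. Of these 83, 4 were higher and 1 lower at an unadjusted p under 0.05, against 7.43% of all tested genes in either direction. With the GC trend taken out instead, 64 were above 0, and their median was 0.10 against -0.02 for all tested genes. At that p 10 were then higher and 1 lower, against 6.71% of all tested genes. The part of the length and GC trends in the members' estimates was not tested further.

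**Figure D5:**
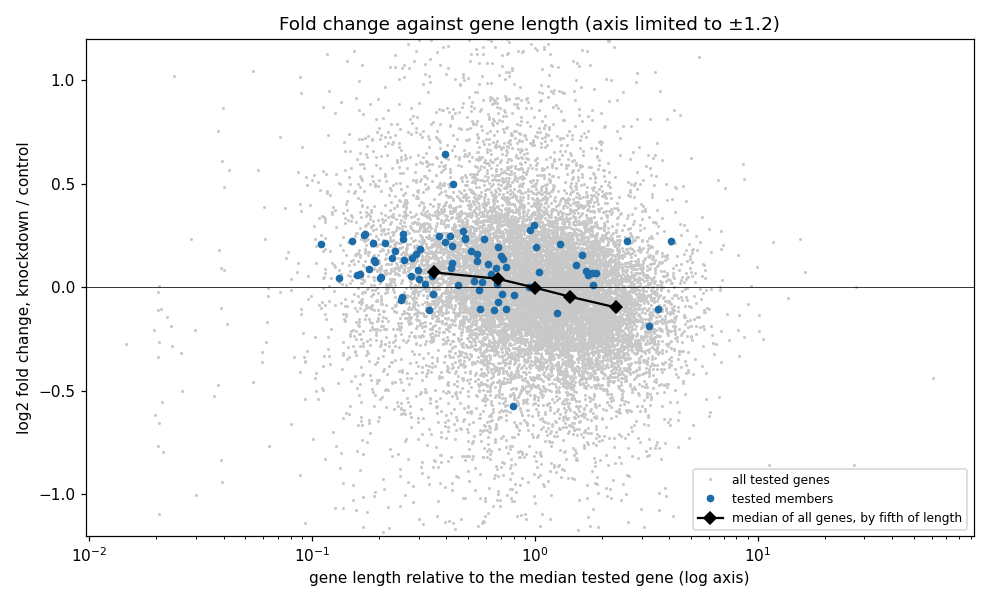
Log2 difference against gene length relative to the median tested gene (log axis), for the 83 members (blue), all 15299 tested genes (grey, values beyond 1.2 in size not drawn) and the medians of all tested genes over 5 bins of equal size (diamonds). Length is the transcript length implied by reads and FPKM. The medians of all genes run from 0.07 in the shortest bin to -0.10 in the longest, and 45 members lie in the shortest bin.

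In order to set the nuclear subunits beside their mitochondrial partners, the 13 subunits encoded in mitochondrial DNA were read from the same fit. All 13 had estimates below 0, with a median of -0.13, 4 of them (30.8%) at an unadjusted p under 0.05 and 0 past an adjusted p of 0.05. Over all tested genes 49% of estimates were above 0 and 4.32% were lower at that p. Their sum was 48397 ± 923 CPM in the libraries labelled control and 44095 ± 2581 CPM in those labelled knockdown, and knockdown replicate 3 was lowest. MT-ND2, a core subunit of complex I, measured 3819, 4143 and 4215 CPM against 3616, 3496 and 3542 CPM, a difference of -0.19 (adjusted p 0.599). MT-ATP8, of the ATP synthase, measured 1610.1, 1285 and 1482 CPM against 1228, 1278 and 1144 CPM, and the groups did not overlap (-0.26, adjusted p 0.599). The count below 0 stayed at 13 under each other scaling, tool and offset, and was 11 without knockdown replicate 3 and 12 without control replicate 1 or control replicate 3. The medians of the nuclear members and of the mitochondrial subunits were thus of opposite sign, although 15 of the 83 nuclear members also had estimates below 0, and no estimate passed the test.

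Genes that act around the members were also examined. Of 53 assembly factors, which insert cofactors and join the subunits, 33 had estimates above 0, with a median of 0.06, 3 higher (5.66%) and 0 lower at an unadjusted p under 0.05, and 0 past an adjusted p of 0.05. Over all tested genes 49% were above 0 and 3.86% higher at that p, so the number higher was near the background. ATP5SL stands both in this list and among the members. SURF1, which acts in the assembly of complex IV, measured 21.5, 20.1 and 21.3 CPM in the libraries labelled control and 28.3, 25 and 26.2 CPM in those labelled knockdown, a difference of 0.34 (adjusted p 0.599). C17orf89 (NDUFAF8) and TIMMDC1, both of complex I assembly, had differences of 0.30 and 0.24 (adjusted p 0.605). All 3 were among the 7 of 53 (13.2%) that were higher without overlap of the groups, and 0 were lower without overlap. Over all tested genes 7.94% were higher and 7.7% lower without overlap.

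Of 13 regulators of mitochondrial biogenesis 7 were above 0, with a median of 0.0082 and 0 past an adjusted p of 0.05. TFAM, which packages and transcribes mitochondrial DNA, measured 54.7, 52.2 and 45.7 CPM against 38.3, 33.5 and 43.6 CPM, all knockdown values lying below all control values. Its difference was -0.40 (SE 0.129, adjusted p 0.599), and -0.29 with the GC trend taken out. It was the only one of the 13 (7.69%) at an unadjusted p under 0.05, and the only one lower without overlap (7.69%). Over all tested genes 4.32% were lower and 3.86% higher at that p, and 7.7% were lower without overlap. Both counts were thus near the background. PPRC1, a coactivator of the PGC-1 family, had the next smallest p, with a difference of 0.19 (adjusted p 0.679). The transcripts of the factors whose motifs were searched differed by 0.15 for NRF1 (SE 0.176) and -0.08 for YY1 (SE 0.0942). For the GABP genes GABPA and GABPB1 the differences were -0.12 (SE 0.221) and 0.0082 (SE 0.124). Of cytochrome c and the mitochondrial carriers of phosphate and adenine nucleotides, 4 of 5 genes were listed, with a median of -0.11, and the 1 above 0 was the phosphate carrier SLC25A3 (0.07). CYCS, which encodes cytochrome c, was 205 ± 6.25 against 182 ± 17.6 CPM (-0.17, adjusted p 0.641), and SLC25A5, an abundant adenine nucleotide carrier, was 627 ± 22.5 against 559.8 ± 40.1 CPM (-0.16, adjusted p 0.625).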

How the data were processed

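Polyadenylated RNA of 6 HK-2 libraries was measured, 3 labelled control and 3 labelled knockdown. The authors deposited raw read counts per gene and FPKM values, and the submitters' processing notes name bcl2fastq, TopHat2, edgeR and GRCh38. The versions, counting program, annotation and strand setting were not given in the sources used here. The deposited FPKM were the same counts rescaled (SD at most 2.9e-04 in log2 over 2556 genes).

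Counts were fitted by quasi-likelihood in edgeR 4.0.16 under R 4.3.3 (TMM scaling, filter with a minimum count of 10 and a total of 15, all genes fitted, two-sided p adjusted by Benjamini-Hochberg, threshold 0.05). CPM are TMM-scaled, errors are SDs over 3 libraries, and intervals are 95% intervals of the fit. Length and GC trends were removed as loess offsets with a span of 0.3, the GC offset being chosen after seeing the data. Alternatives were RLE, upper-quartile and library-size scaling, no filter, DESeq2 1.42.0, limma 3.58.1 (voom, and log2(FPKM + 1) or log2(FPKM + 0.1)), a replicate block and leaving out each library. The fit was tested on simulated data.

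The rule for named genes took ANXA2, the 3 members of smallest p and those of highest and lowest FPKM in each complex, all SDH genes, the isoform pairs, members with an unadjusted p under 0.05 or without overlap of the groups up to the 12 of smallest p, and the 2 of smallest p in each other list. Members and lists were chosen with earlier results of these data known, and other genes were named after their values were seen. Replicates differed by a chi-square of 10.4 to 53.5 per degree of freedom, so none was counted as a duplicate. The labels do not say that they were separate cultures, so p-values measure only the spread between these libraries. 1 tested member is counted in every summary but not reported singly here. Gene coordinates are those of GENCODE on GRCh38.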

Additional observations from a re-analysis of the deposited data

How the results depend on the processing

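No member passed an adjusted p of 0.05 under any alternative run, although DESeq2 called 32 genes, edgeR without the filter 165 and edgeR without knockdown replicate 2 called 4 in the whole table. The number of the 83 members at an unadjusted p under 0.05 was 11 as reported, 6 with scaling by library size alone and 7 with DESeq2. It was 5 with the length offset and 2 to 19 with a library left out. Of all genes fitted, 8.18%, 8.52%, 4.78% and 7.43% had such a p in the named fits, in this order. With a library left out the share was 3.21% to 12.4%. The median over the members was 0.046 with the length offset and 0.087 to 0.18 with a library left out. With the length offset the median of complex IV was 0.062 and that of complex V -0.0021, and leaving out a library gave 0.080 to 0.14 for complex III. The length offset turned COX4I1 to -0.042, COX6A2 to -0.068, COX7A2 to -0.088, NDUFA4 to -0.0039, NDUFS5 to -0.043, SDHB to -0.045 and UQCRH to -0.017. The GC offset turned COX4I1 to -0.059 and COX6A2 to -0.16, and scaling by library size alone turned COX7A2 to -0.0066. Estimates that changed sign with a library left out ranged from -0.32 to 0.018 for ATP5S, -0.27 to 0.24 for COX6A2, -0.037 to 0.10 for COX7A2, -0.012 to 0.12 for NDUFS5, -0.023 to 0.12 for SDHB, -0.24 to 0.026 for SDHD and -0.43 to 0.18 for UQCRHL. Apart from the alternatives' own construction, the cause of these shifts was not tested. ANXA2 kept its direction in 17 of 17 alternatives. Libraries with the same number did not deviate together (correlations -0.06, 0.12 and -0.20). The replicate block left 9 members at an unadjusted p under 0.05, against 7.03% of all tested genes. It left 0 members past an adjusted p of 0.05 and a median of 0.11. Depth limited the members with few reads, NDUFA4L2, UQCRHL and COX6A2 above all.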
